A study of Mus musculus with 8 samples.

Results

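The RNA of 34 genes of blood coagulation and complement was followed through 8 libraries of cultured fetal mouse liver cells. The genes were taken by symbol, 19 of them from clotting and fibrinolysis and 15 from complement, out of 23467 genes in the deposited table, and all 34 were present. Hepatoblasts, the common progenitors of hepatocytes and biliary epithelial cells (BECs), were cultured from fetal livers at E14.5 of B6;129 mixed mice. They were sequenced either on collagen without further differentiation (iHB), after treatment towards hepatocytes with 12.5 ng/ml oncostatin M for 5 days by the labels (iHP), or after 14 days on Matrigel towards BECs (iBEC). Wild-type cells, called control, gave 1 library at each of these 3 stages. Cells of the genotype Lats1-/-;Lats2f/fl;Alb-cre, called L1L2_Alb, gave 1 library of iHB, 2 of iHP and 2 of iBEC. *Lats1* and *Lats2* encode the kinases of the Hippo pathway that restrain YAP and TAZ. *Lats1* was deleted in every cell of these embryos, and Alb-cre deletes floxed *Lats2* in the hepatoblast lineage, so other cells of the culture lacked *Lats1* alone. The labels do not say whether the libraries of a pair came from different embryos, so the spread within a pair may be technical. No control stage has a replicate. Each p for genotype or stage from all 8 libraries therefore measures that spread together with how the genotype difference varies between stages.

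Hepatocytes secrete most of the clotting and complement proteins of plasma. In coagulation, serine proteases activate each other in a chain that ends with thrombin cutting fibrinogen into fibrin, while plasmin, made from plasminogen, dissolves the clot. In complement, the classical, lectin and alternative pathways converge on the cleavage of C3, after which the terminal components assemble the pore called the membrane attack complex. Some of the factors are made as zymogens or cofactors, and a fetal hepatoblast starts to make many of the factors as it matures.

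The libraries held 18436865 to 33229075 reads, as recovered from the steps of the deposited values, which are RPKM (reads scaled by gene length and library size). *Lats1* was at 5.38 to 11.2 RPKM in the 3 control libraries and at 7.12 to 22.7 in the 5 labelled L1L2_Alb, and *Lats2* at 6.90 to 10.1 and at 10.9 to 27.6. These values cover whole genes and cannot show the loss of single exons, and as they stand they do not bear the labels out, so each direction below is that of libraries labelled L1L2_Alb against those labelled control. Of 7 hepatocyte markers, *Alb*, *Ttr* and *Hnf4a* were called lower in the L1L2_Alb libraries and none higher. Control iBEC held the lowest levels of the BEC keratins *Krt7* (62.3 RPKM) and *Krt19* (83.7 RPKM) among the 8 libraries, and the highest level of *Alb* (6162 RPKM) and of *Spp1* (23271 RPKM), so its name is used below as a label of the culture. The summed level of 3 neutrophil markers (*Mpo*, *Elane* and *S100a8*) was 1366 to 4850 RPKM in controls and 18.5 to 1939 in L1L2_Alb libraries, and that of 6 mesenchymal markers 2481 to 4522 and 732 to 3143. Of the 19 tested markers of macrophages, endothelial cells, mesenchymal cells, erythroid cells and megakaryocytes or platelets, together with the 3 of neutrophils, *Hbb-b1* alone was called, and it was lower. The part of these other cells in the results below was not tested.

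The 34 genes took up a larger share of the measured RNA at each later stage and a smaller share in L1L2_Alb than in control cells. Their sum was 0.922%, 3.88% and 6.22% of all RPKM in control iHB, iHP and iBEC. In the L1L2_Alb libraries it was 0.198% in iHB, 1.33% and 1.23% in iHP, and 1.91% and 2.24% in iBEC. Every L1L2_Alb library was thus below the control of its stage, while the sums of iHP and iBEC were above that of control iHB. In iHP this held for the fibrinogen chains but not for the rest. The other 16 clotting genes held 0.103% and 0.0790% in L1L2_Alb iHP, against 0.163% in control iHB. Complement genes held 0.114% and 0.0936%, against 0.215%. The fibrinogen chains made up most of the sum in every library but L1L2_Alb iHB, where they held 0.0911%, against 0.543% in control iHB and 4.84% in control iBEC. Complement genes ran from 0.0641% in L1L2_Alb iHB to 0.676% in control iBEC, and *C3* alone held 0.534% there.

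**Figure D1:**
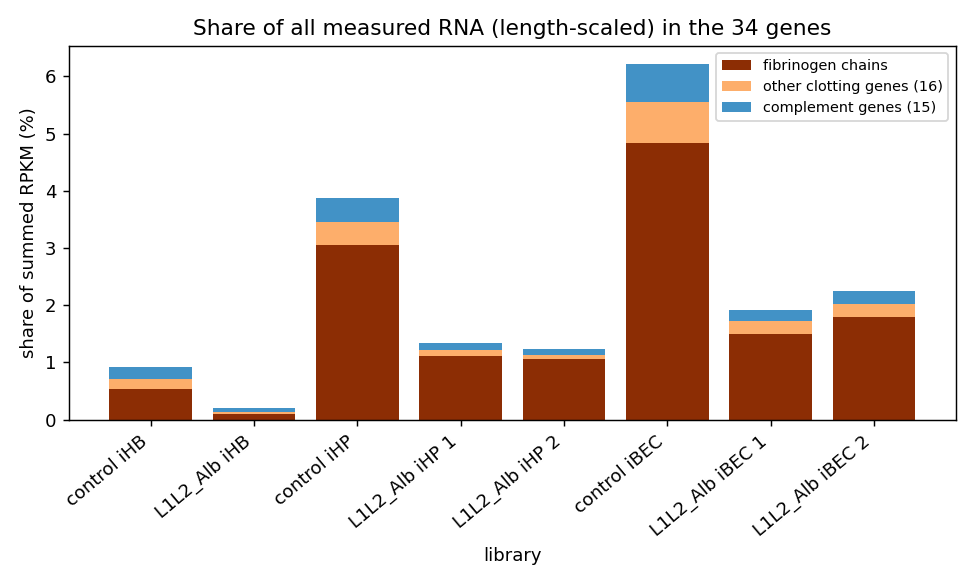
Share of the summed RPKM of each library (y axis, %) held by the 3 fibrinogen chains, the other 16 clotting genes and the 15 complement genes, stacked, for the 8 libraries (x axis). The stack is tallest in control iBEC (6.22%) and lowest in L1L2_Alb iHB (0.198%), and each L1L2_Alb stack is lower than the control stack of its stage.

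Most of the genes were highest in control iBEC and lowest in L1L2_Alb iHB. Control iBEC was the highest library for 27 of the 34 genes, 16 of 19 clotting and 11 of 15 complement genes. L1L2_Alb iHB was the lowest for 20, and the second L1L2_Alb iHP library for 9. These counts were not made over all genes. The exceptions at the top were *Masp1* and *C2*, which peaked in L1L2_Alb iHB, *Proc*, which peaked in control iHB, and *F11*, *Klkb1*, *C4b* and *C8b*, which peaked in control iHP. Levels spanned from *Fgb* at 15089 RPKM in control iBEC to genes listed at 0.

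**Figure D2:**
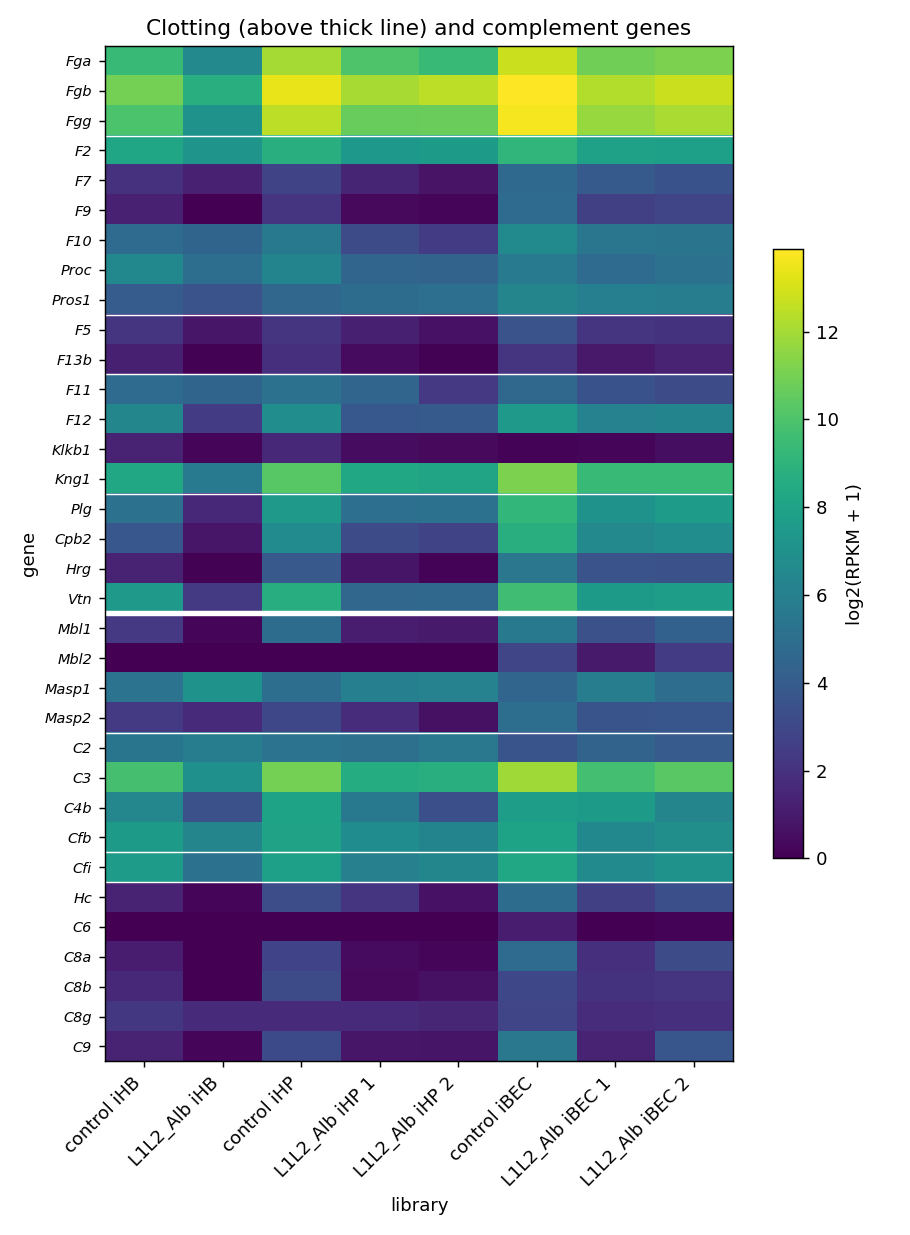
Level of each of the 34 genes (rows, grouped by role, clotting above the thick line and complement below) in each of the 8 libraries (columns), as log2(RPKM + 1) by colour. Control iBEC is the brightest column for 27 of the 34 genes, and *Masp1* and *C2* are the rows brightest in L1L2_Alb iHB.

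The comparison of genotypes asks how the genes differ between libraries labelled L1L2_Alb and control at the same stage. Across the 3 stages 25 of the 32 genes that could be tested were called lower in L1L2_Alb libraries, and *Masp1*, a protease of the lectin pathway, was called higher, a call lost with upper-quartile scaling or quantile normalization. A gene was tested if its mean over the libraries was at least 1 RPKM, and called if its adjusted p was under 0.05 in a limma fit of log2(RPKM + 1) with stage as a block (3 control against 5 L1L2_Alb libraries). Of all 13421 genes tested, 3.37% were called lower and 6.2% higher. The 25 comprised 16 of 18 tested clotting genes and 9 of 14 tested complement genes. *Klkb1* (mean 0.658 RPKM) and *C6* (mean 0.153 RPKM) were not tested, and *F13b* (1.25 RPKM) and *Mbl2* (1.49 RPKM) stood just above the limit. The tested genes that were not called were *Pros1*, *F11*, *Mbl2*, *C2*, *C4b* and *C8g*. Fewer cells of a type and less RNA in each cell cannot be told apart in such libraries.

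The median fitted difference (L1L2_Alb minus control, in log2(RPKM + 1)) was -1.71 over the 32 genes, -1.68 over clotting and -1.71 over complement genes, against 0.06 over all genes tested. In single libraries set against the control of their stage, the median of the 32 was -1.28 in iHB, -1.79 and -2.21 in iHP, and -1.60 and -1.33 in iBEC, so each of the 5 libraries was lower. The median over all genes moved by 0.22 and 0.26 in the iBEC libraries as deposited and by 0.09 and 0.05 after upper-quartile scaling, so the iBEC differences are relative to that shift. All 5 L1L2_Alb libraries were below the control of their stage for 27 of the 32 genes (10.1% of all genes) and above it for *Masp1* alone (22.9% of all genes). Every control library was above every L1L2_Alb library for 7 genes, *F2*, *Proc*, *F5*, *F11*, *F12*, *Cfb* and *Cfi* (3.7% of all genes). Without the iHP libraries the calls fell to 3 clotting genes (*Fga*, *Kng1* and *Cpb2*) and 0 complement genes (0.984% of all genes), whereas the median differences stayed at -1.72 and -1.46. Without the iHB libraries 5 complement genes were called (*Mbl1*, *C3*, *Cfb*, *Cfi* and *C8a*, with 2.43% of all genes), and with no filter on low values 4 (*Mbl1*, *C3*, *Cfb* and *Cfi*, with 3.43% of all genes).

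**Figure D3:**
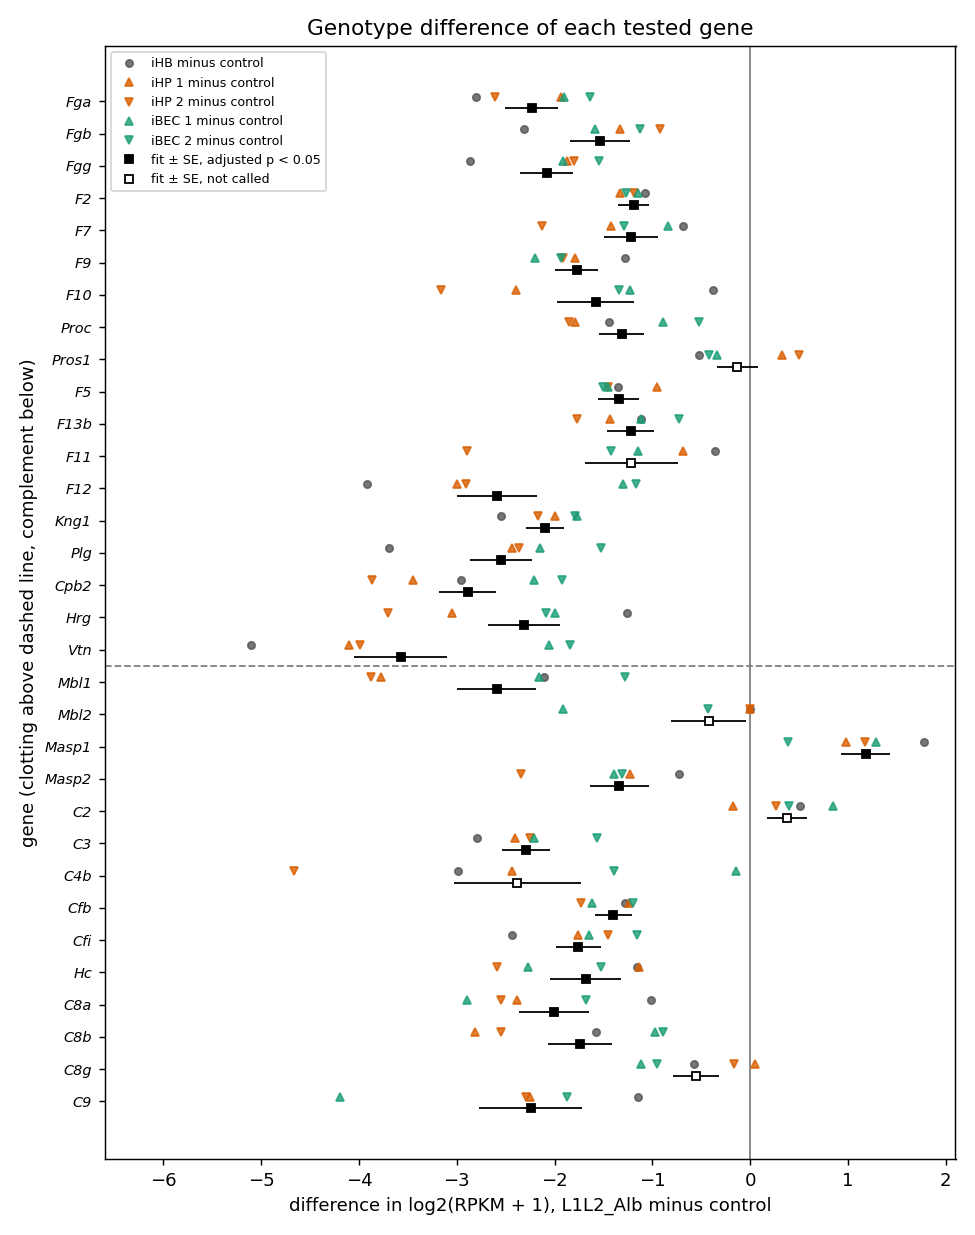
Difference in log2(RPKM + 1) between each L1L2_Alb library and the control of its stage (small coloured symbols) and the fitted genotype difference with its SE (squares with bars, filled when the adjusted p is under 0.05), for the 32 tested genes (y axis). Filled squares lie left of 0 for 25 genes and right of 0 for *Masp1*, and *Vtn* has the most negative fitted difference (-3.57).

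Among the clotting genes, the 3 fibrinogen chains fell together. *Fga*, *Fgb* and *Fgg* encode the alpha, beta and gamma chains, which are assembled in the hepatocyte into the soluble precursor of fibrin, and the 3 genes lie next to each other on mouse chromosome 3. *Fga* was at 655, 4053 and 7067 RPKM in control iHB, iHP and iBEC, against 93.2 in the iHB, 1056 and 662 in the iHP and 1890.4 and 2277 in the iBEC libraries labelled L1L2_Alb. For *Fgb*, control iHB, iHP and iBEC held 2030.0, 10898 and 15089 RPKM, and the L1L2_Alb libraries 408 in iHB, 4322 and 5753 in iHP, and 5018 and 6909 in iBEC. *Fgg* measured 970.3 RPKM in control iHB and 132 in its L1L2_Alb counterpart, 5813 against 1589 and 1669.6 in iHP, and 13002 against 3449.6 and 4443 in iBEC. In each of the 5 pairings the L1L2_Alb library was lower, and L1L2_Alb iHP and iBEC were above control iHB for all 3 chains. The fitted differences were -2.23 ± 0.27 (SE, adjusted p = 0.00353) for *Fga*, -1.53 ± 0.30 (adjusted p = 0.0205) for *Fgb* and -2.08 ± 0.27 (adjusted p = 0.00479) for *Fgg*. *Fgb*, the most abundant chain, had the smallest of these differences, and its call was lost with quantile normalization (adjusted p = 0.105) and when low genes were not filtered out (0.121). The call was also lost when any 1 stage was left out, and was made in 9 of 14 alternative settings. The level of *Fgb* over that of *Fga* was 3.10, 2.69 and 2.14 in control iHB, iHP and iBEC, and 4.38 in iHB, 4.09 and 8.69 in iHP, and 2.65 and 3.03 in iBEC labelled L1L2_Alb. This ratio was higher than control at every stage. Its size, though not its comparison between libraries, rests on the gene lengths used by the authors.

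Promoter sequences are shown for the fibrinogen cluster, whose genes moved together, and for *Vtn* and *Pros1*, the clotting genes with the largest and the smallest genotype difference. They are the 250 bases before the start of the gene in RefSeq (GRCm38.p6), at chr3:83025903-83026152 (plus strand), chr3:83049864-83050113 (minus strand), chr3:83007474-83007723 (plus), chr11:78498870-78499119 (plus) and chr16:62854057-62854306 (plus), read 5′ to 3′ on the strand of the gene. Capitals mark letters that match a motif of HNF1 (GTTAATNAT), C/EBP (TTGCNNAA), STAT (TTCNNNGAA), TEAD (GGAATG) or the TATA box (TATAAA) on either strand.
Fga: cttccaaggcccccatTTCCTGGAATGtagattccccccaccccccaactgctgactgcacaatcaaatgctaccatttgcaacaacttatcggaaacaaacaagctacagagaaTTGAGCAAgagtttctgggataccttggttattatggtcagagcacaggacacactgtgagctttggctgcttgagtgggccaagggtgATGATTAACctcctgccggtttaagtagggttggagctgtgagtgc
Fgb: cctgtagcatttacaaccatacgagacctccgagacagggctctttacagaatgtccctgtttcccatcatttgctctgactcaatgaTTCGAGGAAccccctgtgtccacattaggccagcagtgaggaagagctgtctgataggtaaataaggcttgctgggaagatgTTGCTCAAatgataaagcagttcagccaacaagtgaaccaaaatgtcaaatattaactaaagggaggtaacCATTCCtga
Fgg: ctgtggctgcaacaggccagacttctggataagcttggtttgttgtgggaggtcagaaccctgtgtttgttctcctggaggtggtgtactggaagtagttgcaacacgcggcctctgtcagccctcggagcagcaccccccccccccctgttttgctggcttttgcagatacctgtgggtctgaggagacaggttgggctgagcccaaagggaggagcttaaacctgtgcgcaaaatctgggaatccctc
Vtn: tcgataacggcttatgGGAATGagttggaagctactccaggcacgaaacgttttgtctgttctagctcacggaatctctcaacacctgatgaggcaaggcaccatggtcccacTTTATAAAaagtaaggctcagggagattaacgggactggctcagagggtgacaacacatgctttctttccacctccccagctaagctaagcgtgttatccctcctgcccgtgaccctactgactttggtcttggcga
Pros1: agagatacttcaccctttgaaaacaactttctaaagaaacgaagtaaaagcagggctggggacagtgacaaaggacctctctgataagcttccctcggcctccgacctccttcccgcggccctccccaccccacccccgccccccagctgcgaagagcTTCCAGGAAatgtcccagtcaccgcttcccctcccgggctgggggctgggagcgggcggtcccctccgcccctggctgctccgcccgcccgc
HNF1, C/EBP and HNF4 are transcription factors of hepatocytes, STAT proteins carry signals of cytokines such as oncostatin M, and TEAD proteins are the DNA-binding partners of YAP and TAZ. *Fga* held an HNF1 match at -46 to -38 from the start, a C/EBP match at -135 to -128, and a STAT match at -234 to -226 that overlapped a TEAD match at -229 to -224. *Fgb* held a C/EBP match at -80 to -73, a STAT match at -162 to -154 and a TEAD match at -9 to -4. No letters of these motifs were found in the window of *Fgg*, which moved with the other chains. *Vtn* held a TEAD match at -234 to -229 and 2 overlapping TATA matches on opposite strands, and *Pros1* a STAT match at -92 to -84. Of the 34 genes 26 had a promoter in the table used, and 1 was taken for each. The shares of all promoters count every entry instead. TEAD letters were in 5 of the 26 (*F5*, *Fga*, *Fgb*, *Vtn* and *F9*), or 19.23%, against 12.64% of 32851 promoters. These were 5 of 16 clotting and 0 of 10 complement promoters. The C/EBP letters were in 8 (30.77% against 9.564%), those of STAT in 6 (23.08% against 7.02%), those of HNF1 in 3 (*F13b*, *Hc* and *Fga*, 11.54% against 0.7367%) and those of the TATA box in 3 (11.54% against 12.37%). The HNF4 letters searched (CAAAGTCCA or AGGTCAAAG) were in 0 of the 26 and in 0.758% of all promoters. A match of letters is not a bound site, and these shares were not tested.

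The vitamin K-dependent proteins carry a modified glutamate that lets them bind membranes, and 5 of the 6 fell. They are prothrombin (*F2*), factors VII, IX and X (*F7*, *F9* and *F10*), and the anticoagulants protein C (*Proc*) and its cofactor protein S (*Pros1*). *F2* was at 302, 424 and 552 RPKM in control iHB, iHP and iBEC, against 142 in the iHB, 168 and 185 in the iHP and 249 and 229 in the iBEC libraries labelled L1L2_Alb. *F7* measured 2.93 RPKM in control iHB and 1.44 in its L1L2_Alb counterpart, 6.23 against 1.69 and 0.656 in iHP, and 26.3 against 14.2 and 10.2 in iBEC. For *F9*, control iHB, iHP and iBEC held 1.43, 3.36 and 27.5 RPKM, and the L1L2_Alb libraries 0 in iHB, 0.258 and 0.155 in iHP, and 5.20 and 6.48 in iBEC. *F2* kept its groups apart in every library with the narrowest spread of the 6, whereas *F7* and *F9* were highest in the iBEC libraries of either genotype. *F9* had 0 reads in L1L2_Alb iHB and 111 in control iHB, at least 37.3-fold lower when 3 reads are taken as the floor. *F10* was at 27.7, 48.6 and 101 RPKM in control iHB, iHP and iBEC, against 21.1 in the iHB, 8.45 and 4.53 in the iHP and 42.5 and 39.0 in the iBEC libraries labelled L1L2_Alb. *Proc* measured 87.9 RPKM in control iHB and 31.8 in its L1L2_Alb counterpart, 77.2 against 21.6 and 20.7 in iHP, and 53.1 against 28.2 and 36.5 in iBEC. *F10* was the least different in iHB and most in iHP, and *Proc* was the only clotting gene to peak in control iHB. Fitted genotype differences came to -1.77 ± 0.22 (SE, adjusted p = 0.00411) for *F9*, -1.58 ± 0.39 (adjusted p = 0.0432) for *F10*, -1.31 ± 0.23 (adjusted p = 0.0129) for *Proc*, -1.22 ± 0.28 (adjusted p = 0.0325) for *F7* and -1.19 ± 0.16 (adjusted p = 0.00498) for *F2*. *F10* was called in 5 of 14 alternative settings, with an adjusted p of 0.0512 for a pseudocount of 0.1, 0.104 with no filter on low values and at most 0.167 (without the iHP stage). *F7* was called in 7 of them, with an adjusted p of 0.0847 under no filter and at most 0.158 (without the iHP stage).

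*Pros1* was the vitamin K-dependent gene that was not called. For *Pros1*, control iHB, iHP and iBEC held 15.7, 22.9 and 79.4 RPKM, and the L1L2_Alb libraries 10.6 in iHB, 28.9 and 32.6 in iHP, and 62.5 and 59.1 in iBEC. The L1L2_Alb libraries were below control in iHB and iBEC and above it in both iHP libraries. The fitted difference was -0.13 ± 0.21 (SE, adjusted p = 0.747), with a 95% interval of -0.60 to 0.34.

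The cofactor and crosslinking genes were low and both fell. *F5* encodes the cofactor that speeds the activation of prothrombin, and *F13b* the carrier subunit of the factor that crosslinks fibrin. *F5* was at 3.48, 3.43 and 10.6 RPKM in control iHB, iHP and iBEC, against 0.758 in the iHB, 1.30 and 0.615 in the iHP and 3.24 and 3.11 in the iBEC libraries labelled L1L2_Alb. *F13b* measured 1.30 RPKM in control iHB and 0.0586 in its L1L2_Alb counterpart, 2.61 against 0.342 and 0.0592 in iHP, and 3.19 against 0.926 and 1.53 in iBEC. *F5* separated the genotypes in every library, and *F13b* had 4 reads in L1L2_Alb iHB and 3 in the second L1L2_Alb iHP library. In the fit the difference was -1.34 ± 0.21 (adjusted p = 0.00882) for *F5* and -1.22 ± 0.24 (adjusted p = 0.0194) for *F13b*.

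In the contact system, which starts clotting on charged surfaces and releases bradykinin, 2 of the 3 tested genes fell. *F12* was at 82.2, 112 and 174 RPKM in control iHB, iHP and iBEC, against 4.51 in the iHB, 13.2 and 14.1 in the iHP and 70.2 and 76.9 in the iBEC libraries labelled L1L2_Alb. *F12* encodes factor XII, and its difference from control was larger in iHB and iHP than in iBEC. For *Kng1*, control iHB, iHP and iBEC held 321, 1249 and 2223 RPKM, and the L1L2_Alb libraries 54.1 in iHB, 312 and 278 in iHP, and 653 and 642 in iBEC. *Kng1* encodes kininogen, the source of bradykinin, and was next to the fibrinogen chains in abundance among the clotting genes of control iBEC. *F11* measured 27.7 RPKM in control iHB and 21.4 in its L1L2_Alb counterpart, 35.6 against 21.8 and 3.91 in iHP, and 23.7 against 10.1 and 8.22 in iBEC. *F11*, which encodes factor XI, was lower in all 5 L1L2_Alb libraries but differed 5.57-fold between the pair of iHP libraries. Fitted over the stages, the difference was -2.59 ± 0.41 (SE, adjusted p = 0.00902) for *F12*, -2.10 ± 0.20 (adjusted p = 0.00138) for *Kng1* and -1.22 ± 0.48 (adjusted p = 0.149) for *F11*, the last with an interval of -2.31 to -0.12. *Klkb1* was at 1.65, 2.06 and 0.110 RPKM in control iHB, iHP and iBEC, against 0.156 in the iHB, 0.374 and 0.267 in the iHP and 0.204 and 0.443 in the iBEC libraries labelled L1L2_Alb. *Klkb1* encodes plasma prekallikrein, and it was below control in iHB and iHP and above it in both iBEC libraries, where 9 reads stood against 13 and 26.

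The genes of fibrinolysis and its control had the largest differences of all role groups, with a median of -2.72, and all 4 fell. *Plg* was at 36.6, 183 and 588 RPKM in control iHB, iHP and iBEC, against 1.90 in the iHB, 33.2 and 34.9 in the iHP and 132 and 204 in the iBEC libraries labelled L1L2_Alb. *Plg* encodes plasminogen. For *Cpb2*, control iHB, iHP and iBEC held 12.8, 103 and 427 RPKM, and the L1L2_Alb libraries 0.780 in iHB, 8.49 and 6.11 in iHP, and 91.3 and 112 in iBEC. *Cpb2* encodes the carboxypeptidase that slows fibrinolysis by trimming fibrin. *Vtn* measured 173 RPKM in control iHB and 4.05 in its L1L2_Alb counterpart, 406 against 22.7 and 24.6 in iHP, and 780.0 against 187 and 217 in iBEC. *Vtn* encodes vitronectin, the plasma partner of the plasminogen activator inhibitor. *Hrg* was at 1.497, 13.5 and 45.2 RPKM in control iHB, iHP and iBEC, against 0.0401 in the iHB, 0.749 and 0.108 in the iHP and 10.6 and 9.83 in the iBEC libraries labelled L1L2_Alb. *Hrg* encodes the histidine-rich glycoprotein, which binds plasminogen and heparin, and had 2 reads in L1L2_Alb iHB and 4 in the second L1L2_Alb iHP library. In the fit over stages the difference was -3.57 ± 0.48 (SE, adjusted p = 0.00498) for *Vtn*, -2.89 ± 0.29 (adjusted p = 0.0019) for *Cpb2*, -2.55 ± 0.32 (adjusted p = 0.00411) for *Plg* and -2.32 ± 0.37 (adjusted p = 0.00916) for *Hrg*. *Vtn* was thus 11.9-fold lower on the scale of RPKM + 1, and 42.6-fold lower in L1L2_Alb than in control iHB in plain RPKM but 4.18-fold and 3.59-fold lower in the iBEC libraries.

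Among the complement genes, the lectin pathway held genes called in both directions. *Mbl1* and *Mbl2* encode the mannose-binding lectins, which recognise sugars on microbes, and *Masp1* and *Masp2* the proteases that these lectins carry. For *Mbl1*, control iHB, iHP and iBEC held 3.96, 28.7 and 47.9 RPKM, and the L1L2_Alb libraries 0.151 in iHB, 1.18 and 1.02 in iHP, and 9.96 and 19.2 in iBEC. *Masp2* measured 4.17 RPKM in control iHB and 2.13 in its L1L2_Alb counterpart, 6.91 against 2.39 and 0.563 in iHP, and 31.5 against 11.3 and 12.1 in iBEC. *Masp1* was at 38.4, 31.2 and 22.4 RPKM in control iHB, iHP and iBEC, against 134 in the iHB, 62.5 and 71.4 in the iHP and 56.0 and 29.7 in the iBEC libraries labelled L1L2_Alb. *Mbl1* and *Masp2* were lower in all 5 L1L2_Alb libraries and *Masp1* was higher in all 5. The fitted differences were -2.59 ± 0.40 (SE, adjusted p = 0.00882) for *Mbl1*, -1.34 ± 0.30 (adjusted p = 0.0322) for *Masp2* and 1.18 ± 0.26 (adjusted p = 0.0279) for *Masp1*. The call of *Masp1* was made in 7 of 14 alternative settings, and was lost with upper-quartile scaling (adjusted p = 0.0572), quantile normalization (0.0614), no filter on low values (0.0656) and without the iHP stage (0.166), where its adjusted p was highest. That of *Masp2* was also made in 7, and was lost with a pseudocount of 0.1 (adjusted p = 0.062). The level of *Masp1* over that of *Masp2* was 9.20, 4.51 and 0.711 in control iHB, iHP and iBEC, and 62.9 in iHB, 26.2 and 127 in iHP, and 4.94 and 2.45 in iBEC labelled L1L2_Alb. *Mbl2* had 0 reads in every iHB and iHP library of either genotype. Its level in iBEC was 6.42 RPKM for control, 0.976 and 4.51 for L1L2_Alb cells. Its fitted difference of -0.42 ± 0.39 (adjusted p = 0.544) therefore rests on 3 libraries.

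Of the early and amplifying components, *C3* and *Cfb* fell, while *C4b* and *C2* were not called. The product of *C3* is cut in all pathways, *Cfb* encodes factor B, the protease of the alternative pathway, and *C2* and *C4b* encode the parts of the C3 convertase of the classical and lectin pathways. For *C3*, control iHB, iHP and iBEC held 874, 2039.9 and 3882 RPKM, and the L1L2_Alb libraries 125 in iHB, 386 and 427 in iHP, and 838 and 1307 in iBEC. *Cfb* measured 190.1 RPKM in control iHB and 77.8 in its L1L2_Alb counterpart, 258 against 108 and 76.9 in iHP, and 269 against 87.2 and 117 in iBEC. *C3* was lower in each pairing and was higher at each later stage in either genotype, whereas *Cfb* was not called between any stages and was higher in every control than in every L1L2_Alb library. *C4b* was at 85.5, 265 and 211 RPKM in control iHB, iHP and iBEC, against 9.93 in the iHB, 48.3 and 9.49 in the iHP and 191 and 79.9 in the iBEC libraries labelled L1L2_Alb. The pair of L1L2_Alb iHP libraries differed 5.09-fold for *C4b*, and its first iBEC library was near control. Reads of *C4b* may also be shared with its near-identical neighbour *C4a*, since the counting method is not given in the sources used here. For *C2*, control iHB, iHP and iBEC held 40.7, 37.9 and 11.1 RPKM, and the L1L2_Alb libraries 58.1 in iHB, 33.3 and 45.7 in iHP, and 20.6 and 14.9 in iBEC. *C2* was above control in 4 of 5 L1L2_Alb libraries and lowest in iBEC in either genotype. Over the stages the fit gave -2.30 ± 0.25 (SE, adjusted p = 0.00228) for *C3*, -1.40 ± 0.19 (adjusted p = 0.00526) for *Cfb*, -2.38 ± 0.65 (adjusted p = 0.0568) for *C4b* with an interval of -3.87 to -0.89, and 0.38 ± 0.21 (adjusted p = 0.293) for *C2* with an interval of -0.09 to 0.85. *Cfb* and *C2* lie next to each other on chromosome 17, and the level of *Cfb* over that of *C2* was 4.68, 6.80 and 24.4 in control iHB, iHP and iBEC, and 1.34 in iHB, 3.25 and 1.68 in iHP, and 4.22 and 7.89 in iBEC labelled L1L2_Alb.

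The regulator *Cfi*, which encodes the protease that inactivates C3b, fell. *Cfi* measured 202 RPKM in control iHB and 36.6 in its L1L2_Alb counterpart, 226 against 65.8 and 81.6 in iHP, and 309 against 98.2 and 138 in iBEC. Every control library was above every L1L2_Alb library, with a fitted difference of -1.76 ± 0.23 (SE, adjusted p = 0.00494).

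Of the terminal components, 4 of the 5 tested genes fell. *Hc* encodes C5, which starts the pore, *C8a*, *C8b* and *C8g* the 3 chains of C8, and *C9* the subunit that lines the pore. *Hc* was at 1.54, 8.59 and 29.1 RPKM in control iHB, iHP and iBEC, against 0.141 in the iHB, 3.37 and 0.594 in the iHP and 5.24 and 9.46 in the iBEC libraries labelled L1L2_Alb. For *C9*, control iHB, iHP and iBEC held 1.61, 7.54 and 46.6 RPKM, and the L1L2_Alb libraries 0.178 in iHB, 0.798 and 0.744 in iHP, and 1.60 and 11.99 in iBEC. *C8a* measured 1.07 RPKM in control iHB and 0.0288 in its L1L2_Alb counterpart, 6.00 against 0.343 and 0.194 in iHP, and 27.4 against 2.81 and 7.89 in iBEC. All of these were below 1 RPKM in L1L2_Alb iHB and highest in control iBEC, and the iBEC pair of *C9* differed widely (73 against 505 reads). *C8b* was at 1.98, 8.04 and 7.15 RPKM in control iHB, iHP and iBEC, against 0 in the iHB, 0.291 and 0.545 in the iHP and 3.16 and 3.39 in the iBEC libraries labelled L1L2_Alb. For *C8g*, control iHB, iHP and iBEC held 3.75, 2.21 and 6.42 RPKM, and the L1L2_Alb libraries 2.20 in iHB, 2.32 and 1.86 in iHP, and 2.43 and 2.84 in iBEC. *C8b* had 0 reads in L1L2_Alb iHB and 126 in control iHB, at least 42.3-fold lower with 3 reads as the floor. *C8g* was lower in 4 of 5 libraries. For this group the fit gave -2.24 ± 0.53 (SE, adjusted p = 0.0351) for *C9*, -2.00 ± 0.36 (adjusted p = 0.0143) for *C8a*, -1.74 ± 0.32 (adjusted p = 0.0162) for *C8b*, -1.68 ± 0.36 (adjusted p = 0.0276) for *Hc* and -0.55 ± 0.24 (adjusted p = 0.184) for *C8g*, the last with an interval of -1.10 to -0.00848. The call of *C9* was lost with quantile normalization (adjusted p = 0.0619), and when low genes were not filtered out the calls of *C9* (0.0985), *Hc* (0.0799), *C8b* (0.0517) and *C8a* (0.0509) were lost. In the alternative settings *C9* was called in 8 of 14, *Hc* in 10 of 14, *C8b* in 10 of 13 and *C8a* in 12 of 14. *C6*, which follows C5 into the complex, was listed at 0 in all iHB and iHP libraries and in the first L1L2_Alb iBEC library, at 1.12 RPKM in control iBEC and at 0.103 in the second.

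Set side by side, clotting and complement genes had medians of -1.68 and -1.71. All 18 tested clotting genes had a negative fitted difference, from -3.57 (*Vtn*) to -0.13 (*Pros1*). Of the 14 tested complement genes 12 were negative, from -2.59 (*Mbl1*), and *C2* (0.38) and *Masp1* (1.18) were positive. In the single libraries the clotting median was -1.39 in iHB, -1.83 and -2.15 in iHP, and -1.52 and -1.46 in iBEC, and the complement median -1.15, -1.50 and -2.27, and -1.63 and -1.23. The order of the families was not the same in the 5 libraries. No test was made between the families, whose genes were chosen by name and share the same 8 libraries.

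The comparison of stages asks how the genes change as hepatoblasts are differentiated. From iHB to iBEC 21 of the 32 tested genes rose and *C2* fell (2.94% and 2.78% of all genes), in the same fit with genotype as the block. These were 13 of 18 clotting genes, and 8 of 14 complement genes beside *C2*. *Mbl2* is among the 21, with 0 reads in every iHB and iHP library. It passed the filter on low values only through iBEC, so its call is not independent of that filter. *Cpb2* rose most, by 5.54 ± 0.37 (adjusted p = 0.000612) on the log2 scale, followed by *Plg* with 5.02 ± 0.40 (adjusted p = 0.000695), *Fgg* with 4.37 ± 0.34 (adjusted p = 0.000686) and *Fga* with 4.02 ± 0.33 (adjusted p = 0.0009). In complement, *Mbl1* rose by 3.64 ± 0.50 (adjusted p = 0.00577), *Hc* by 3.16 ± 0.45 (adjusted p = 0.00664), *C9* by 3.11 ± 0.66 (adjusted p = 0.0316) and *C3* by 2.67 ± 0.31 (adjusted p = 0.003), while *C2* fell, with -1.69 ± 0.26 (adjusted p = 0.00847). *Pros1*, which did not differ by genotype at the threshold, rose by 2.30 ± 0.26 (adjusted p = 0.00275). *Masp1*, with -1.28 ± 0.32 (adjusted p = 0.0566), *F2*, with 0.80 ± 0.20 (adjusted p = 0.0545), and *Cfi*, with 1.19 ± 0.29 (adjusted p = 0.0532), had an adjusted p just above 0.05 and were not called. The median over the 32 genes was 2.64, against -0.25 over all genes. In the L1L2_Alb libraries alone 15 of the genes were called, and 2.51% of all genes. Time in culture, matrix and treatment changed together between stages and cannot be told apart.

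From iHB to iHP, the step towards hepatocytes, 0 of the 32 genes were called by limma, as were 0% of all genes in either direction. Unadjusted p was under 0.05 for 12 of the 32 genes (9 clotting and 3 complement) and for 1158 of all genes. Control iHP was above control iHB for 27 of the 34 genes, a count not made over all genes. The median difference was 0.88 in the fit against -0.15 over all genes. *Fgg* differed by 3.14 ± 0.34 (adjusted p = 0.0741), *Fgb* by 3.08 ± 0.38 (adjusted p = 0.0741), *Fga* by 2.88 ± 0.33 (adjusted p = 0.0741), *Plg* by 2.97 ± 0.40 (adjusted p = 0.0777) and *Kng1* by 2.19 ± 0.24 (adjusted p = 0.0741). With a mean of at least 5 RPKM as the filter the fibrinogen chains and *Kng1* were called (0.0411% of all genes), and with upper-quartile scaling *Fgg* and *Kng1* (0.0149%).

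From iHP to iBEC 15 genes rose and *C2* fell (2.45% and 1.67% of all genes), 10 of the 15 in clotting and 5 in complement. *Mbl2*, which passed the filter only through iBEC, is again among the 15. *Cpb2* rose by 3.11 ± 0.32 (adjusted p = 0.0062), *F9* by 2.57 ± 0.24 (adjusted p = 0.00487), *Hrg* by 2.56 ± 0.41 (adjusted p = 0.0164), *F7* by 2.39 ± 0.31 (adjusted p = 0.00885) and *Masp2* by 2.32 ± 0.33 (adjusted p = 0.0127), while *C2* fell, with -1.31 ± 0.23 (adjusted p = 0.0229). The fibrinogen chains were not called here, with 1.23 ± 0.30 (adjusted p = 0.063) for *Fgg*, 1.14 ± 0.30 (adjusted p = 0.0733) for *Fga* and 0.32 ± 0.34 (adjusted p = 0.618) for *Fgb*. With upper-quartile scaling *Fga* and *Fgg* were called, and *Fgg* also with a mean of at least 5 RPKM and with eBayes without a trend. In L1L2_Alb cells both iBEC libraries were above both iHP libraries for 27 of the 34 genes. Control iBEC was above control iHP for 27 too, and neither count was made over all genes. The median of control iBEC minus control iHP was 0.93 over the 32 tested genes and -0.25 over all genes tested. The count of 16 genes moved with single libraries. It was 3 without the second iBEC library (*F7*, *F9* and *Cpb2*, with 1.26% of all genes called), 5 without the first iHP library (*F7*, *F9*, *Cpb2*, *Masp2* and *C2*, with 1.16%), 8 without the first iBEC library (1.74%) and 9 without the second iHP library (7.35%). It was 4 with no filter on low values (*F7*, *F9*, *Cpb2* and *Masp2*, with 1.05%), and 1 (*F9*, with 0.462%) when the libraries of a pair were averaged. Over all genes 553 were called as reported, so the calls over all genes were fewer in these settings too, except without the second iHP library (987).

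**Figure D4:**
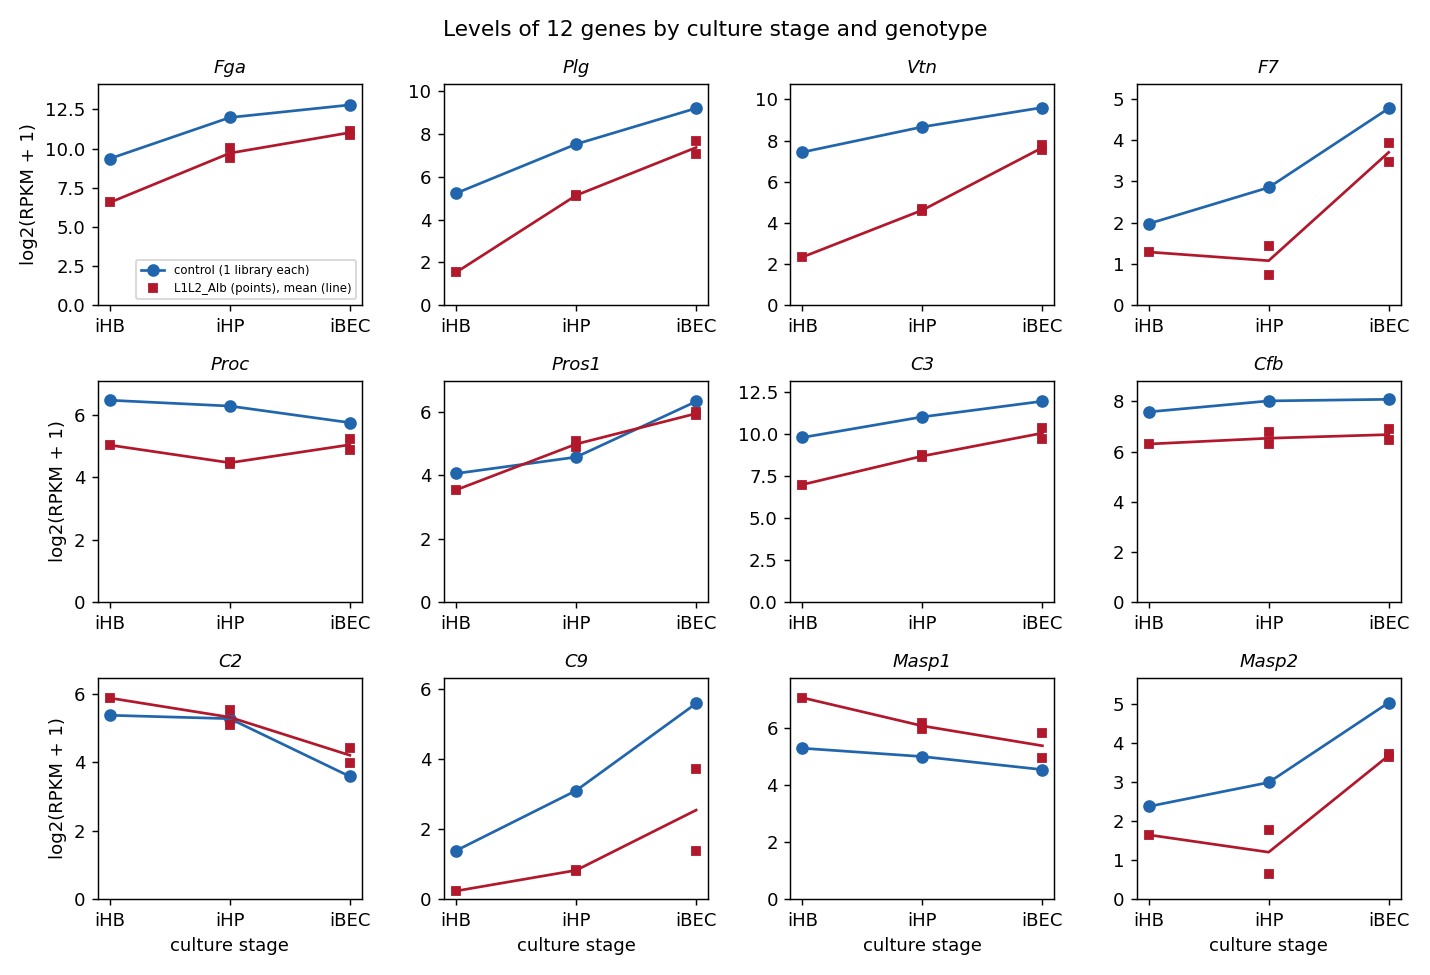
Level of 12 of the genes as log2(RPKM + 1) (y axis) at the 3 culture stages (x axis), for control (blue circles, 1 library a stage) and L1L2_Alb libraries (red squares, 1 or 2 a stage, with the line through their mean). *Fga*, *Plg*, *Vtn* and *C3* rise with stage in either genotype with L1L2_Alb below control, *Masp1* lies above control at every stage, and the lines of *Pros1* cross.

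Whether the genotype difference itself changed with stage was tested on the 6 group means, with 2 residual degrees of freedom. The moderated F test of limma called 0 of the 32 genes, and 0% of all genes. Unadjusted p was under 0.05 for 8 of the 32 genes and for 733 of all genes, and the smallest adjusted p among the 32 was 0.359 (*Vtn*). The 8 were *F10*, *F12*, *Plg*, *Cpb2*, *Hrg* and *Vtn* of clotting and *Mbl1* and *C8b* of complement. For *Vtn* the differences of single libraries from control were -5.10 in iHB, -4.10 and -3.99 in iHP, and -2.06 and -1.84 in iBEC. For *F12* they were -3.91 in iHB, -2.99 and -2.91 in iHP, and -1.30 and -1.17 in iBEC. For *F10* they were -0.38 in iHB, -2.39 and -3.16 in iHP, and -1.22 and -1.34 in iBEC. *Vtn* and *F12* were thus least different in iBEC, and *F10* in iHB. L1L2_Alb cells did not reach the level of control cells of the same stage for most genes. However, 18 of the 34 genes were higher in both L1L2_Alb iBEC libraries than in control iHB (12 clotting and 6 complement genes). In both L1L2_Alb iHP libraries 5 of the 34 were higher than in control iHB and 25 were lower. None of these counts was made over all genes.

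Other genes of the same pathways, taken from a list of named receptors, inhibitors and activators, were called in both directions. Of 27 tested genes of clotting and fibrinolysis 6 were called lower and 6 higher, with a median difference of 0.22. Of 17 tested complement genes 4 were called lower and 1 higher, with a median of 0.20. Of all genes tested 3.37% were called lower and 6.2% higher, and 1 of 17 is near the latter share. The lower clotting genes were the secreted inhibitors *Serpinc1* (antithrombin), *Serpina10* (the inhibitor that uses protein Z) and *Serpinf2* (the plasmin inhibitor), with *Proz* (protein Z), *Habp2* (a protease that binds hyaluronan) and *Fgl1* (a fibrinogen-like protein). *Serpinc1* was at 22.4, 84.0 and 303 RPKM in control iHB, iHP and iBEC, against 1.05 in the iHB, 7.15 and 5.86 in the iHP and 55.4 and 92.0 in the iBEC libraries labelled L1L2_Alb. The fitted difference of *Serpinc1* was -2.99 ± 0.31 (SE, adjusted p = 0.00222), and those of the other 5 lay between -2.43 and -1.79. The higher genes were *Procr* (the receptor of protein C), *Thbd* (thrombomodulin), *F2r* and *F2rl1* (protease-activated receptors), *Plaur* (the urokinase receptor) and *S100a10* (a partner of annexin at the membrane), of which 5 encode receptors on the cell surface. For *Procr*, control iHB, iHP and iBEC held 14.48, 7.34 and 5.30 RPKM, and the L1L2_Alb libraries 364 in iHB, 115 and 212 in iHP, and 32.1 and 62.4 in iBEC. *Thbd* measured 8.96 RPKM in control iHB and 28.2 in its L1L2_Alb counterpart, 12.01 against 52.8 and 46.9 in iHP, and 12.1 against 24.8 and 23.5 in iBEC. *Procr* and *Thbd*, which together let thrombin activate protein C, were higher in each of the 5 L1L2_Alb libraries while *Proc* was lower. Genotype differences were 3.82 ± 0.38 (SE, adjusted p = 0.00162) for *Procr*, 1.78 ± 0.19 (adjusted p = 0.00222) for *F2r*, 1.48 ± 0.21 (adjusted p = 0.00673) for *Thbd*, 1.38 ± 0.27 (adjusted p = 0.019) for *Plaur*, 1.10 ± 0.29 (adjusted p = 0.0487) for *F2rl1* and 0.91 ± 0.20 (adjusted p = 0.0293) for *S100a10*.

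In complement, the lower genes were the classical proteases *C1ra* and *C1s*, their inhibitor *Serping1* and the fluid-phase regulator *C4bp*. *C1s* measured 46.3 RPKM in control iHB and 2.27 in its L1L2_Alb counterpart, 79.1 against 6.01 and 4.51 in iHP, and 60.4 against 57.5 and 40.1 in iBEC. For *Serping1*, control iHB, iHP and iBEC held 42.1, 105 and 211 RPKM, and the L1L2_Alb libraries 3.29 in iHB, 11.7 and 12.5 in iHP, and 87.1 and 73.7 in iBEC. *C1s* was near control in the iBEC libraries and far below it in iHB and iHP. Their fitted differences were -2.51 ± 0.60 (adjusted p = 0.0381) and -2.51 ± 0.33 (adjusted p = 0.00498), and those of *C4bp* and *C1ra* were -1.98 ± 0.39 (adjusted p = 0.0194) and -1.66 ± 0.37 (adjusted p = 0.0311). *Cd55*, which encodes the membrane protein that breaks up C3 convertases on the cell's own surface, was higher. *Cd55* was at 17.1, 10.4 and 7.58 RPKM in control iHB, iHP and iBEC, against 47.2 in the iHB, 37.4 and 38.6 in the iHP and 29.3 and 36.3 in the iBEC libraries labelled L1L2_Alb. Its fitted difference was 1.75 ± 0.18 (SE, adjusted p = 0.00184).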

How the data were processed

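RNA was measured in 8 libraries, made with a TruSeq RNA kit (version 2) and read on Illumina HiSeq equipment. Each gene has 1 RPKM value per library, deposited by the authors without scaling between the libraries. No source names the unit. It was read from short genes, whose value times their RefSeq length was close to a whole multiple of 1 step per library in 90.1% to 92.0% of cases. The step gave the read totals. The submitters' processing notes name Bowtie 0.12.2 and the build mm8. The counting method and annotation are not given in the sources used here, so no gene positions are given in that build. Floors of 3 reads cover counting error only. Recovered reads, whole for 24 of the 34 genes (within 0.02, wider for large counts), served for floors and were not tested.

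Of 23471 entries 4, of 2 repeated symbols, were left out. The scale was log2(RPKM + 1), which understates changes of low genes. A mean of 1 RPKM or more was required, which 13421 genes had. These entered limma (version 3.58.1, with R 4.3.3), by lmFit and eBayes with a trend, with additive terms for stage and genotype. P was two-sided and Benjamini-Hochberg adjusted over all of these genes, with 0.05 as the threshold. Whether the genotype difference changed with stage was tested with a moderated F on 6 group means. Values in every library are given for each tested gene of the 34, and other pathway genes are named when called, except 3 of the complement list that are not reported here and are in none of its counts. The genes, lists and motifs were chosen with earlier results of these data known. Promoters came from RefSeq (GRCm38.p6). The procedure was tested on simulated data. Alternatives were a pseudocount of 0.1, scaling to the upper quartile (percentile 75), quantile normalization, dropping the filter or raising it to 5 RPKM, eBayes with no trend, leaving out each library of a pair or each stage, averaging pairs, and, for stages, L1L2_Alb libraries alone with and without a replicate block. Tables and figures were made in Python (3.11.15) using matplotlib 3.10.9, numpy 2.4.6 and pandas 2.3.3.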

Additional observations from a re-analysis of the deposited data

Results flagged for a closer look

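In 2 genes every L1L2_Alb library moved away from control in opposite directions at different stages. *Pros1* was lower than control in iHB (-0.52 on the log2 scale, 1 library), higher in both iHP libraries (mean 0.41) and lower in both iBEC libraries (mean -0.38). The limma F test of the difference between stages gave an unadjusted p of 0.191 and an adjusted p of 1.00 for *Pros1*. *Klkb1* was lower in iHB (-1.20, 1 library) and in both iHP libraries (mean -1.21) and higher in both iBEC libraries (mean 0.25). This difference was not tested, since *Klkb1* was under the limit on low values, with 9 to 26 reads in the iBEC libraries.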

How the results depend on the processing

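The genotype medians kept their sign in all settings run. The clotting median was -2.09 with a pseudocount of 0.1, -1.93 with a mean of at least 5 RPKM and -1.86 without the iHB stage, moves beyond the spread between replicate libraries (SD 0.16), and lay between -1.70 and -1.67 when 1 library of a pair was left out. The complement median lay between -1.80 and -1.57 then. Clotting calls were 14 to 15 with 1 library left out, and 3 without the iHP stage. Complement calls were 8 to 10 with 1 library left out, 5 without the iHB stage, 4 with no filter and 0 without the iHP stage. Without that stage 132 of all genes were called, and with 1 library left out 5.91% to 9.14% of all genes. *Pros1* changed sign to 0.015 without the iHB stage and to 0.012 without the iBEC stage, and was called in neither. Calls from iHB to iHP were 0 with 1 library left out, 2 with upper-quartile scaling and 4 with a mean of at least 5 RPKM. With 1 library left out, calls from iHB to iBEC ran from 17 (3.64% of all genes) to 25 (13%). Those from iHP to iBEC ran from 3 (1.26%) to 9 (7.35%) then, with 4 under no filter (1.05%) and 1 with averaged pairs (0.462%). In the 4 L1L2_Alb libraries of iHP and iBEC, 14 of the genes were called with the replicate number as a block (6.79% of all genes) and 12 without it (3.41%). Same-numbered libraries did not deviate together (r = -0.022 across 13421 genes, which are not independent), so the number is taken as a name. The cause of these moves was not tested. Depth limits the genes of a few reads (*F9*, *F13b*, *Hrg*, *Mbl1*, *C8a*, *C8b* and *C9* in L1L2_Alb iHB), whose fitted differences depend on the pseudocount. *Mbl1* had 4 reads there and *C9* 9, and with a pseudocount of 0.1 their differences were -3.41 and -3.08.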

Other observations

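Several of the genes lie next to each other in the genome, by their order in RefSeq, and neighbours were not always alike. On chromosome 8, *F7* and *F10* are adjacent, and against control the level of *F7* was 2.03-fold lower in L1L2_Alb iHB and 3.68-fold and 9.49-fold lower in iHP, and that of *F10* 1.32-fold, 5.75-fold and 10.7-fold lower, so their order turned between iHB and iHP. *F11* and *Klkb1* are adjacent on the same chromosome, and in control iBEC relative to control iHB the level was 0.856 times as high for *F11* and 0.0665 times for *Klkb1*. *C8b* and *C8a* are adjacent on chromosome 4, and from control iHB to control iBEC *C8b* was 3.62-fold and *C8a* 25.5-fold higher. *Hrg* and *Kng1* lie on chromosome 16 with 1 coding gene between them, and rose 30.2-fold and 6.92-fold over the same stages. These folds each compare 1 library with 1 other and were not tested.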
